A study of Homo sapiens with 18 samples.

Results

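The NOTCH receptors, their ligands and the genes that NOTCH signalling switches on were followed as regions of open chromatin in head and neck squamous carcinoma cells treated with an antibody against the epidermal growth factor receptor. The genes were the receptors NOTCH1, NOTCH2 and NOTCH3, the ligands JAG1, JAG2 and DLL1, and the targets HES1, HEY1, HES2 and NRARP. A region was counted to a gene if it overlapped the gene body or the 20 kb on either side in the GENCODE annotation of the human genome build hg19 (GRCh37). This gave 54 of the 115087 regions of the study. There were 5 at NOTCH1, 7 at NOTCH2, 4 at NOTCH3, 11 at JAG1, 6 at JAG2, 3 at DLL1, 6 at HES1, 5 at HEY1, 4 at HES2 and 3 at NRARP.

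NOTCH signalling passes between neighbouring cells. A JAG or DLL ligand on one cell binds a NOTCH receptor on the next, the receptor is cleaved by ADAM proteases and then by gamma-secretase, and its freed intracellular part enters the nucleus, where it joins the DNA-binding protein RBPJ and MAML coactivators and switches on targets such as HES and HEY repressors and the feedback inhibitor NRARP. In stratified squamous epithelium the pathway promotes differentiation, and NOTCH1 is recurrently inactivated by mutation in head and neck squamous carcinoma.

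The assay was ATAC-seq, which uses the Tn5 transposase to cut and tag DNA that is not packed away, applied to the established cell lines SCC1, SCC6 and SCC25. Each line was grown with cetuximab at 100 nM, an antibody that blocks the receptor, or with PBS as the untreated control, and collected on day 5. There were 3 libraries in each group except SCC1 PBS, with 2, since replicate 2 of that group was not analysed here. Each line is a single tumour-derived line grown without stroma, and the labels do not say whether replicates were separate cultures, so p-values measure the spread between these libraries, which may be technical. The values are a signal, the reads in a region multiplied by a factor set for each library, and reads in regions ranged from 2194851 to 15017130 per library. The depth was lowest in SCC1 (2194851 to 4171650), and its shallowest library was cetuximab replicate 2. In SCC25 the cetuximab libraries had 3214656, 7385401 and 2513828 reads in regions, and the PBS libraries 5509462 to 13408698. Promoter regions of the squamous markers TP63 and KRT5 had mean PBS signals of 37.3 and 56.1 in SCC1, 18.5 and 21.4 in SCC6, and 36.4 and 73.4 in SCC25, whereas that of the desmosomal cadherin DSG3 was 42.8 in SCC1, 51.3 in SCC25 and 0.988, the level of the floor, in SCC6. In bulk cells a lower signal from fewer open cells and from less open chromatin in each cell cannot be told apart.

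The regions the results turn on are shown here as sequence from hg19, each 5′ to 3′ on the strand of its gene. Capitals mark matches, on either strand, to GTGGGAA (the letters bound by RBPJ), TGANTCA (the AP-1 site) or GCCNNNGGC (the TFAP2 site). The first pair are the 200 bases upstream of the HES1 and NOTCH1 starts, at chr3:193853737-193853936 (plus strand) and chr9:139440501-139440700 (minus strand). HES1, the classical NOTCH target, has the RBPJ letters there, and the NOTCH1 window has none of these motifs.
HES1 upstream: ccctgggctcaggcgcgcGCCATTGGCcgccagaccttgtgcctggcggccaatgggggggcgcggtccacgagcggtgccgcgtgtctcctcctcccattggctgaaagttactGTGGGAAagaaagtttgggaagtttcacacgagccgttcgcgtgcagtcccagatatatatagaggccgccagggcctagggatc
NOTCH1 upstream: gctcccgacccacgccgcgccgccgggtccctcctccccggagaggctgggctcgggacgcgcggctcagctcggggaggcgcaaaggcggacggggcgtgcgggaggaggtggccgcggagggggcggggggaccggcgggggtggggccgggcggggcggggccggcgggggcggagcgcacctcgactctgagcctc

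The next lines show regions away from the starts whose signal differed with treatment or between lines. They are intronic regions of JAG1 at 8.6 and 6.1 kb from its start (chr20:10645966-10646176 and chr20:10648472-10648688, minus strand), a region 3.3 kb downstream of the HES1 start (chr3:193857173-193857372, plus strand) and 1 located 9.5 kb upstream of NOTCH3 (chr19:15321178-15321458, minus strand). The last are the central 200 bases of a region 9.3 kb upstream of NRARP (chr9:140205927-140206126, minus strand) and a region 6.0 kb upstream of JAG2 at a start of its neighbour NUDT14 (chr14:105640985-105641250, minus strand).
JAG1 at 8.6 kb: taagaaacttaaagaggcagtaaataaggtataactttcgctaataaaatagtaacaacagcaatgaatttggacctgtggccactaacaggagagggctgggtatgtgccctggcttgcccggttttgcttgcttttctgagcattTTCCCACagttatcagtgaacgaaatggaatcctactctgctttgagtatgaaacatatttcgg
JAG1 at 6.1 kb: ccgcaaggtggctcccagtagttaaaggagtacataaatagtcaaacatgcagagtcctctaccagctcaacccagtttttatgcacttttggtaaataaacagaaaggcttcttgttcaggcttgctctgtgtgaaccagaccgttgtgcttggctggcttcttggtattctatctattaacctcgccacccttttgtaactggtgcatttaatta
HES1 at 3.3 kb: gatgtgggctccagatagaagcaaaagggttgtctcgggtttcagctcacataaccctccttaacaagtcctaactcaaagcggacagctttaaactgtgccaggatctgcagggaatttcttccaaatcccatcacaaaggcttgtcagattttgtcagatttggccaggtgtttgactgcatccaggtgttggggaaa
NOTCH3 upstream region: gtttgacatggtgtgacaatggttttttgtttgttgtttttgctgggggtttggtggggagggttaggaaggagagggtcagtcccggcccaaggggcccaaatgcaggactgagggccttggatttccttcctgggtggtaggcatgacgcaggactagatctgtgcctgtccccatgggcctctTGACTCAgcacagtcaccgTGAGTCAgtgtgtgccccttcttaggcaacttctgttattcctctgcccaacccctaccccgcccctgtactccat
NRARP upstream region: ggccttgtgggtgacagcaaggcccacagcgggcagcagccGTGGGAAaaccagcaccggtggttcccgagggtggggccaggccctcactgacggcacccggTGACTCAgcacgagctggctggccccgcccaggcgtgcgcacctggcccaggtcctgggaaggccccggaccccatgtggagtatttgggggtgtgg
JAG2 upstream region: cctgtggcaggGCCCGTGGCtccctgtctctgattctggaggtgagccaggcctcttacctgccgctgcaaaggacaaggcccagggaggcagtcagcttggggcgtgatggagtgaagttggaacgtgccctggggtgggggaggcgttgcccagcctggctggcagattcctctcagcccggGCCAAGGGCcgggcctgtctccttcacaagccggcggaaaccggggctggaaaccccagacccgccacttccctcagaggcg

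In the central 200 bases of the member regions, the RBPJ letters stood in 5 of 54 (9.26%), against 3.87% of all regions of the table. The 5 were the intron of NOTCH3 at 5.1 kb, the JAG1 regions at 54.3 and 8.6 kb, the HES1 start and the region upstream of NRARP. The AP-1 letters stood in 14 (25.9%, all regions 26.6%) and the TFAP2 letters in 16 (29.6%, all regions 8.54%). The member regions were richer in GC, with a median of 61.2% against 45.9% over all regions, and the TFAP2 letters are themselves GC-rich. In the 200 bases upstream of 19894 protein-coding starts the shares were 3.97%, 3.72% and 22.4% for RBPJ, AP-1 and TFAP2. A match is a run of letters only, and no binding was measured.

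Of the 54 regions, 29 lay in gene bodies, 15 upstream and 10 downstream, and 12 lay within 1 kb of a start of their own gene, here called promoter regions. A further property of the windows is that 7 regions lay at a promoter of another gene, such as SEC16A beyond the end of NOTCH1, and these cannot be assigned to the NOTCH gene. Among starts, those of JAG1 and HEY1 carried a peak in all 17 libraries, NOTCH1 and HES1 in 14 and NRARP in 13. At the canonical start of NOTCH3 no library had a peak, and at that of JAG2 only 1 had one. DLL1 had a peak at its canonical start in 2 libraries, while all 17 had one at an alternative start 15.6 kb upstream, which it shares with the divergent gene FAM120B. Levels between genes are compared here only per kb of region, as means over the 17 libraries. The region at the HES1 start had 410.2 per kb and that upstream of it 321, the JAG1 promoter 279.5, HEY1 273, NRARP 234, the DLL1 and FAM120B promoter 229, NOTCH1 225 and HES2 164. This order is a description, and neighbours in it were not tested against each other.

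NOTCH2 could not be measured in the region table. Its 7 regions were listed at the floor of 1 read in nearly every library, 5 of them in all 17, and the highest had 20 reads summed over the 17 libraries. The peak lists nevertheless held 42 peaks at the locus, in 14 libraries, and a peak lay at the canonical NOTCH2 start in 10. For 6 of the 7 regions a copy of 98.5% to 100% identity stood elsewhere on chromosome 1. One of them, 42.3 kb upstream of the start at chr1:120654406-120654692 (shown on the minus strand), was identical in every base to chr1:145165046-145165332 on the other strand.
NOTCH2 upstream region: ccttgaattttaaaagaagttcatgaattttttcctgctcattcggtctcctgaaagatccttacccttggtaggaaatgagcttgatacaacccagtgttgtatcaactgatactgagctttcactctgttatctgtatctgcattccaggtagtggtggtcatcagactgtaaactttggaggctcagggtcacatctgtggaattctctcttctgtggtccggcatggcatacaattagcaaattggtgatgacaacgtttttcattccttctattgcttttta
Among the other 47 member regions, 1 had a copy elsewhere, upstream of HES2 with 89.8% identity, and none was at the floor in every library, against 2.82% of all regions in the table. Whether the copies set these values was not tested. NOTCH2 therefore has no value in the comparisons that follow, and neither has a region 34.7 kb from JAG2 that failed the filter on low signal. The other 46 regions were tested in at least 1 comparison.

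**Figure D1:**
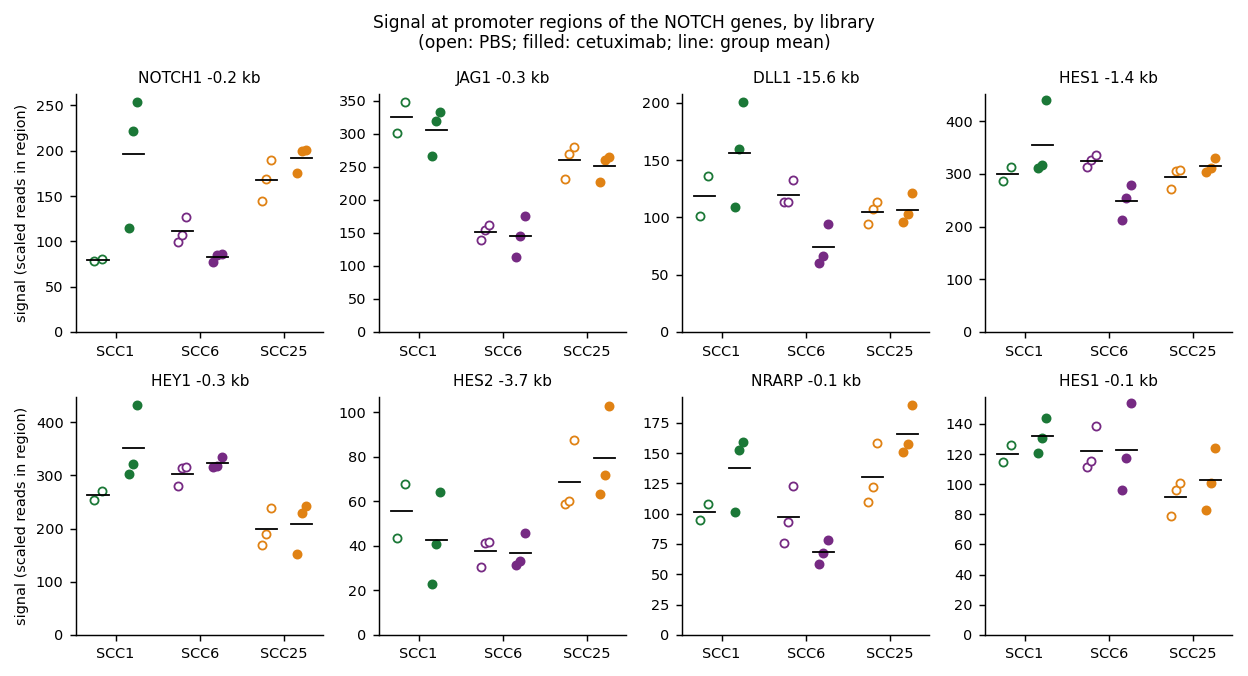
Signal (scaled reads in the region, y axis) in each library at promoter regions of the NOTCH genes, by line, with open points for PBS, filled points for cetuximab and a line at each group mean. At NOTCH1 the 3 cetuximab libraries of SCC1 lie at 115 to 254 and its 2 PBS libraries at 78.2 and 80.7, while the JAG1 groups overlap within each line.

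The first question was whether EGFR blockade changed these loci within each line. In SCC1, cetuximab raised accessibility at 6 of 46 tested regions and lowered none (limma with Benjamini-Hochberg adjustment). The 6 were the NOTCH1 promoter, the SEC16A promoter beyond the end of NOTCH1, 3 regions at JAG2 and the ACOT7 promoter beyond the end of HES2. Over all tested regions 4.58% were higher and 6.56% lower. At unadjusted p under 0.05, 10 member regions were higher and 0 lower, edgeR called 8 higher and 0 lower, and DESeq2 4 and 0. The median log2 difference was 0.11 for the member regions and -0.09 for all regions.

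The NOTCH1 promoter (chr9:139440357-139440985, over the first exon with its 5′ UTR) was the clearest of them. In SCC1 its signal was 80.7 and 78.2 in the PBS libraries and 222, 115 and 254 with cetuximab. All treated libraries were above both controls, and the lowest of them was the shallowest library. The log2 difference was 1.22 (SE 0.23, adjusted p = 2.84e-05). Each of the 14 alternative analyses kept this call, with adjusted p up to 0.0106. The surroundings moved too, since 34.4% of 151 tested regions within 2 Mb were higher, with a median of 0.70. With the trend along GC content removed the log2 difference at the promoter was 0.86.

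The SEC16A promoter (chr9:139377433-139378530), 62.5 kb from the NOTCH1 start, had 262 and 221 in PBS and 517, 333 and 526 with cetuximab. The groups did not overlap, and the log2 difference was 0.90 (adjusted p = 8.91e-06). SEC16A encodes a scaffold of endoplasmic reticulum exit sites.

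JAG2, a ligand of the serrate type, had 3 of its 5 tested regions higher in SCC1. The intron region at 1.3 kb rose from 33.8 and 35.7 to 77.4, 50.6 and 86.1 (log2 difference 0.98, adjusted p = 0.0289). The region at 6.0 kb upstream, printed above, rose from 40.3 and 27.9 to 74.9, 60.3 and 72.0 (1.01, adjusted p = 0.0245). In both, every treated library exceeded every control. The intron at 6.2 kb had 14.3 and 16.7 in PBS and 81.2, 66.2 and 14.1 with cetuximab, so that 1 treated library lay below both controls (1.41, adjusted p = 0.0217). Beyond the end of HES2, the ACOT7 promoter went from 66.4 and 98.3 to 164, 95.4 and 149, and the groups overlapped (0.71, adjusted p = 0.0413). The JAG2 and ACOT7 calls were each lost in 6 or 7 of 14 alternatives. With the GC trend removed, the JAG2 intron at 6.2 kb still passed (adjusted p = 0.0358), and the other JAG2 regions and ACOT7 did not. Of the members' promoter regions 10 were tested in SCC1 and 1 was higher, against 12.6% of all promoter regions higher and 2.12% lower.

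The count in SCC1 rested on single libraries. It was 2 without cetuximab replicate 1, without PBS replicate 1 or without PBS replicate 3, 3 without cetuximab replicate 3, and 10 without cetuximab replicate 2. It was also 10 with each library centred on its median and 3 without the filter on low regions.

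In SCC6, 14 of 40 tested member regions changed, 6 higher and 8 lower, against 16.9% higher and 10.6% lower over all regions. The regions that fell were at NOTCH1, NOTCH3, JAG2, DLL1, HES1 and NRARP. Those called higher lay at JAG1, HES1, HEY1 and HES2, all away from the canonical starts. The median log2 difference was -0.18 for the members and 0.11 for all regions. Centring each library on its median gave 5 higher and 14 lower, and quantile normalization 5 and 13. Without cetuximab replicate 2 the count was 9. Of the 6 higher regions, 2 (JAG1 at 8.6 kb and HEY1 at 16.4 kb) passed the filter on low signal, a mean of 7.80 in SCC6, only through their treated libraries, so that their selection favoured a difference. With both groups above the filter there were 4 higher and 8 lower.

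JAG1, a ligand of the same serrate type, had higher signal inside its gene body. At 8.6 kb, in an intron with the RBPJ letters, the PBS libraries had 1.2, 4.0 and 2.2 and the cetuximab libraries 16.2, 13.9 and 9.92. The groups did not overlap and both were low, and the PBS mean of 2.47 lay under the filter. The log2 difference is therefore given as a description, at 2.10 (SE 0.63). The region was not tested when any 1 of the cetuximab libraries was left out. The intron at 13.7 kb rose from 24.2, 21.4 and 27.2 to 51.5, 43.6 and 47.6 (0.95, adjusted p = 0.00583, and 0.0637 with the libraries of all lines in 1 fit). Peaks were called there in the 3 treated SCC6 libraries and in no other library of any line. The SCC1 PBS libraries had more signal there than the SCC6 PBS libraries, without a peak. SCC1 libraries held 13035 to 36033 peaks in all and the treated SCC6 libraries 61122 to 101272, so these peak calls do not make the region particular to treated SCC6. At 19.4 kb, also in an intron, the PBS libraries had 27.8, 15.4 and 21.8 and the treated ones 28.3, 41.8 and 47.9 (0.84, adjusted p = 0.0301). Without the filter on low regions the JAG1 regions at 40.8 and 6.1 kb were called as well (1.82, adjusted p = 0.0156, and 1.54, adjusted p = 0.0383). Both had failed that filter in SCC6, and no SCC6 library had a peak at either. The region at 40.8 kb lies beyond the end of the gene. The JAG1 promoter (chr20:10654573-10655413) had log2 differences of -0.09 in SCC1, -0.09 in SCC6 and -0.05 in SCC25, with 95% intervals of -0.41 to 0.24, -0.38 to 0.20 and -0.29 to 0.19.

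**Figure D2:**
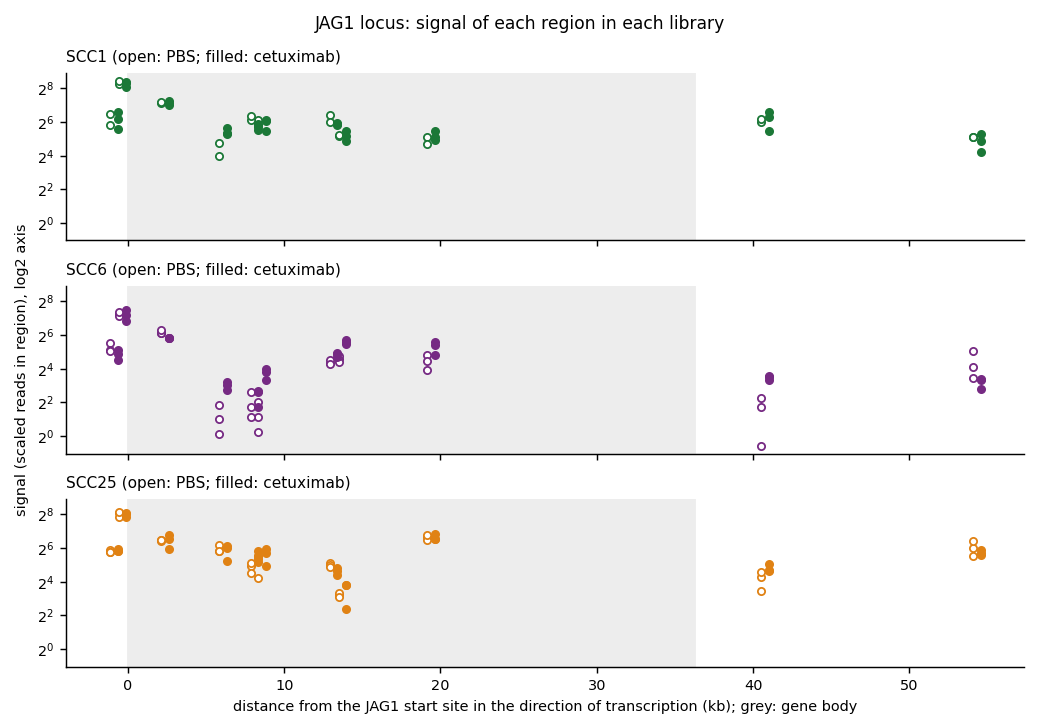
Signal of each JAG1 region (log2 y axis, scaled reads) against distance from the JAG1 start in the direction of transcription (x axis, kb), in 1 panel per line, with open points for PBS, filled points for cetuximab and the gene body in grey. In SCC6 the filled points lie above the open ones at 8.6 and 13.7 kb, and at the start they overlap.

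Among the targets, HES1 moved in both directions in SCC6. The region 3.3 kb downstream of its start rose from 16.9, 19.4 and 26.1 to 43.4, 45.5 and 43.0, a log2 difference of 1.07 (SE 0.28, adjusted p = 0.00326). The region 1.4 kb upstream of the start fell from 326, 312 and 336 to 213, 253 and 279 (-0.39, adjusted p = 0.00289). Neither pair of groups overlapped. The region at the start itself, which holds the RBPJ letters, had a log2 difference of -0.01 with a 95% interval of -0.33 to 0.31. HEY1, a repressor of the same family, has a weak region 16.4 kb from its start with 1.21, 1.34 and 5.44 in PBS and 20.2, 12.1 and 19.8 with cetuximab. Its PBS mean of 2.66 also lay under the filter, and the log2 difference of 2.48 (SE 0.60) is likewise a description. It was not tested with the libraries of all lines in 1 fit. The HEY1 promoter had 0.10 in SCC6 with an interval of -0.09 to 0.28. HES2 rose at 5.3 kb, from 18.1, 20.7 and 37.0 to 52.5, 47.3 and 42.3 (0.94, adjusted p = 0.00907), but not without PBS replicate 1 or without PBS replicate 2 (adjusted p up to 0.0595). With the GC trend removed the HES1 region upstream of the start did not pass (adjusted p = 0.0903).

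NRARP, which dampens NOTCH signalling, fell at both of its upstream regions in SCC6. At 9.3 kb the PBS libraries had 127, 103 and 91.4 and the cetuximab libraries 58.6, 51.1 and 61.8, with no overlap (-0.89, adjusted p = 0.000323). This is the region printed above with RBPJ and AP-1 letters. At 14.2 kb the values went from 45.9, 37.5 and 71.8 to 30.3, 30.6 and 30.4 (-0.69, adjusted p = 0.0428). The promoter itself had a log2 difference of -0.49 and did not pass (adjusted p = 0.0535). The median over 110 tested regions within 2 Mb of NRARP was -0.17.

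The receptor loci fell in part after cetuximab in SCC6. The NOTCH3 region printed above, 9.5 kb upstream with 2 AP-1 matches, fell from 54.4, 40.8 and 41.3 to 19.2, 13.9 and 16.9 (-1.40, SE 0.29, adjusted p = 0.000223, and 0.0711 with the libraries of all lines in 1 fit). NOTCH1 fell 12.3 kb upstream of its start, from 58.0, 52.9 and 54.4 to 35.4, 30.6 and 25.8 (-0.84, adjusted p = 0.00914). In both the treated libraries lay below every control. The SEC16A promoter fell as well (-0.39, adjusted p = 0.00464), a call lost in 4 of 15 alternatives, among them the GC trend removed (-0.25, adjusted p = 0.107). The NOTCH1 promoter had 99.1, 127 and 107 in PBS and 85.9, 77.1 and 84.6 with cetuximab and did not pass (-0.42, adjusted p = 0.0601).

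The remaining calls were at ligand loci. The promoter that DLL1 shares with FAM120B fell from 114, 113 and 133 to 66.7, 60.3 and 94.2 (-0.71, adjusted p = 0.00186), and the groups did not overlap. The JAG2 region 12.6 kb upstream, at another NUDT14 start, fell from 39.9, 35.5 and 29.4 to 20.2, 15.8 and 24.5 (-0.77, adjusted p = 0.0465). The calls at JAG1 19.4 kb, JAG2 12.6 kb and NRARP 14.2 kb were each lost in 8 of 15 alternatives. Among all promoter regions in SCC6, 5.65% were higher and 10.9% lower, and 2 of the members' 10 tested promoter regions were lower, the shared DLL1 promoter and HES1 at 1.4 kb upstream.

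**Figure D3:**
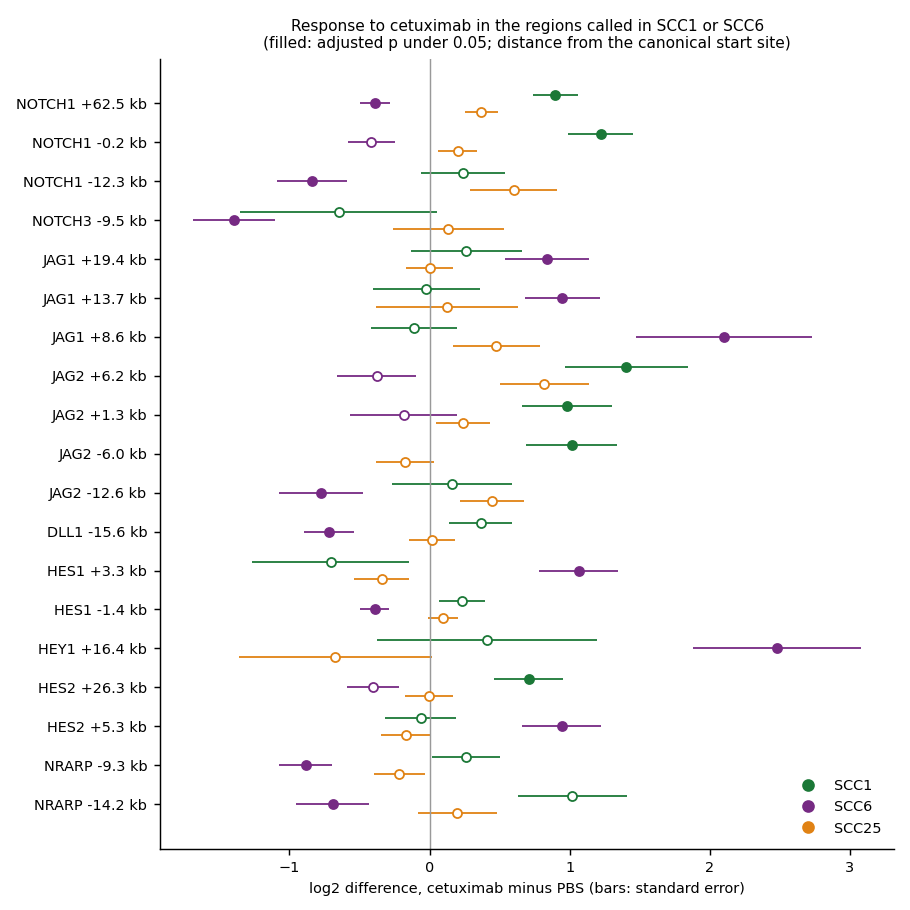
Log2 difference between cetuximab and PBS (x axis, bars show the standard error) for the regions called in SCC1 or SCC6, with 1 row per region, named by gene and distance from the start, and filled points for adjusted p under 0.05. Called regions of SCC1 lie to the right of 0, and those of SCC6 on both sides.

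In SCC25, limma called none of the 46 tested member regions, against 0.0405% of all regions higher and 0.275% lower. Before adjustment, 4 were higher and 2 lower at p under 0.05, while edgeR called 1 after adjustment and DESeq2 0. The 1 was the SEC16A promoter beyond NOTCH1 (edgeR, adjusted p = 0.0196), where limma gave a log2 difference of 0.37 (adjusted p = 0.159). The NOTCH1 promoter had a log2 difference of 0.20 with a 95% interval of -0.08 to 0.48. None of the members' promoter regions was called, against 0.024% of all promoter regions higher and 0.042% lower.

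The regions called in SCC1 and SCC6 differed in base composition. Those that rose in SCC1 had 62.7% to 79.1% GC (median 74.1%). In SCC6 those that rose had 39.1% to 58.8% (median 44.8%) and those that fell 48.9% to 81.4% (median 72.3%). Member regions that were not called had medians of 61.2% in SCC1 and 65.3% in SCC6. The part of GC content in these results was not tested beyond the fits with the trend removed, where SCC6 gave 6 higher and 4 lower.

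**Figure D4:**
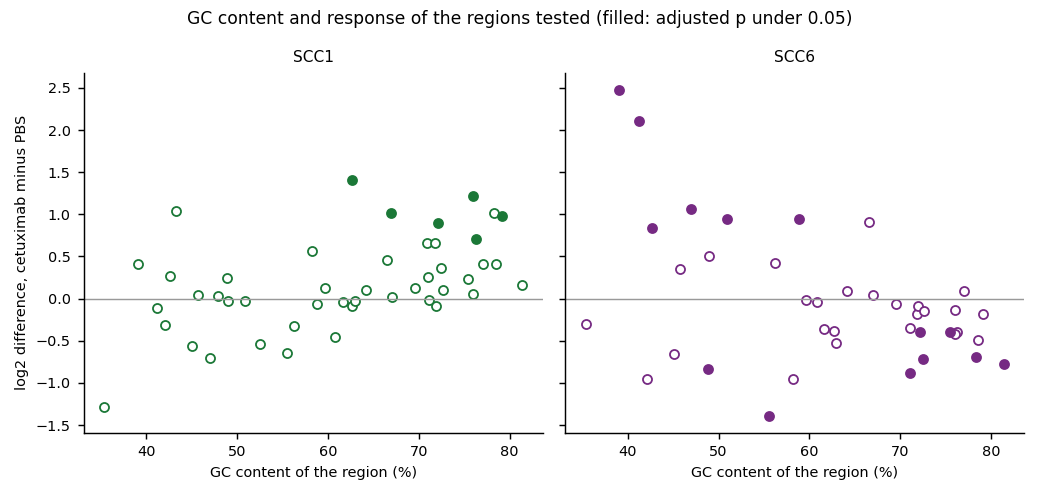
Log2 difference between cetuximab and PBS (y axis) against the GC content of each member region tested (x axis, percent), in 1 panel per line, with filled points for adjusted p under 0.05. The filled points above 0 lie between 62.7% and 79.1% in SCC1 and between 39.1% and 58.8% in SCC6.

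The next question was whether the response differed between lines. With all libraries in 1 fit and the line as a covariate, 1 of 44 tested member regions was called, the region at 40.8 kb from JAG1, which was higher (0.91, adjusted p = 0.0441), against 5.14% of all regions higher and 7.04% lower. This call was lost in 13 of 25 alternatives, with adjusted p up to 0.111, among them the omission of any 1 of the 3 SCC6 cetuximab libraries. Without the filter on low regions, the log2 differences of this region by line were 0.04 in SCC1, 1.82 in SCC6 and 0.69 in SCC25. It had failed the filter within SCC6, where no library had a peak at it, so the value over all lines is a description. No member region was lower, and 1 was at unadjusted p under 0.05. edgeR called 0 regions and DESeq2 2. The interaction of line and treatment, the direct test of a difference between lines, passed for 12 of 44 regions, against 13.2% of all regions.

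The smallest adjusted p-values of the interaction were at the SEC16A and NOTCH1 promoters. At the NOTCH1 promoter (adjusted p = 0.00136), the response in SCC6 was lower than in SCC1 by a log2 of -1.64 (SE 0.30) and that in SCC25 by -1.02 (SE 0.30). The SEC16A promoter had an adjusted p of 0.000585, and the region 12.3 kb upstream of NOTCH1 one of 0.036. The other 9 were JAG1 at 8.6 kb, HES1 at 3.3 kb and at 1.4 kb upstream, all 3 NRARP regions, the shared DLL1 promoter and HES2 at 5.3 and 26.3 kb. Of these, JAG1 at 8.6 kb had passed the filter within SCC6 only through its treated libraries, so its call is a description. With the trend along GC content removed, 4 passed, the NOTCH1 promoter, the region 12.3 kb upstream of it, the SEC16A promoter and HES2 at 5.3 kb. The count was 4 without SCC1 PBS replicate 1, without SCC6 cetuximab replicate 1 or without SCC6 cetuximab replicate 2. It was 7 without SCC1 PBS replicate 3, SCC6 cetuximab replicate 3, SCC6 PBS replicate 1 or SCC25 PBS replicate 1, and 6 without SCC6 PBS replicate 2 or SCC6 PBS replicate 3.

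The lines were then compared without treatment. Between PBS libraries, SCC6 against SCC1 gave 6 regions higher and 16 lower of 44 (all regions, 30.7% and 30.5%). SCC25 against SCC1 gave 10 higher and 10 lower (28.2% and 23.1%), and SCC25 against SCC6 gave 20 higher and 7 lower (36.7% and 32.1%). With centred libraries the last pair of comparisons gave 4 higher and 17 lower, and 17 and 11. Without SCC1 PBS replicate 1 the count for SCC25 against SCC1 was 13. These 3 comparisons share their libraries pairwise. Their filter on low signal took the mean over the PBS libraries of all lines. A region near the floor in 1 line could therefore pass through the others, which favoured a difference, and such regions were not counted apart.

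The widest difference was at HEY1. A region 17.6 kb upstream of its start had 303 and 242 in the SCC1 PBS libraries, 9.67, 6.69 and 6.53 in SCC6, and 8.67, 14.4 and 11.9 in SCC25. SCC1 stood far above both other lines, with log2 differences of -5.00 for SCC6 (SE 0.35) and -4.45 for SCC25 (SE 0.35). The SCC6 values of 6.69 and 6.53 lay under 7.80, the mean that the filter on low signal asked for within SCC6. Since SCC1 carried the mean over the PBS libraries, the selection favoured a difference, and these values are given as descriptions. Peaks were called there in 5 of 5 SCC1 libraries and in 0 of the other 12. The median of the regions within 2 Mb differed by -0.48 and -0.34. With cetuximab the SCC1 libraries had 251, 251 and 294 (log2 difference -0.03, adjusted p = 0.939).

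**Figure D5:**
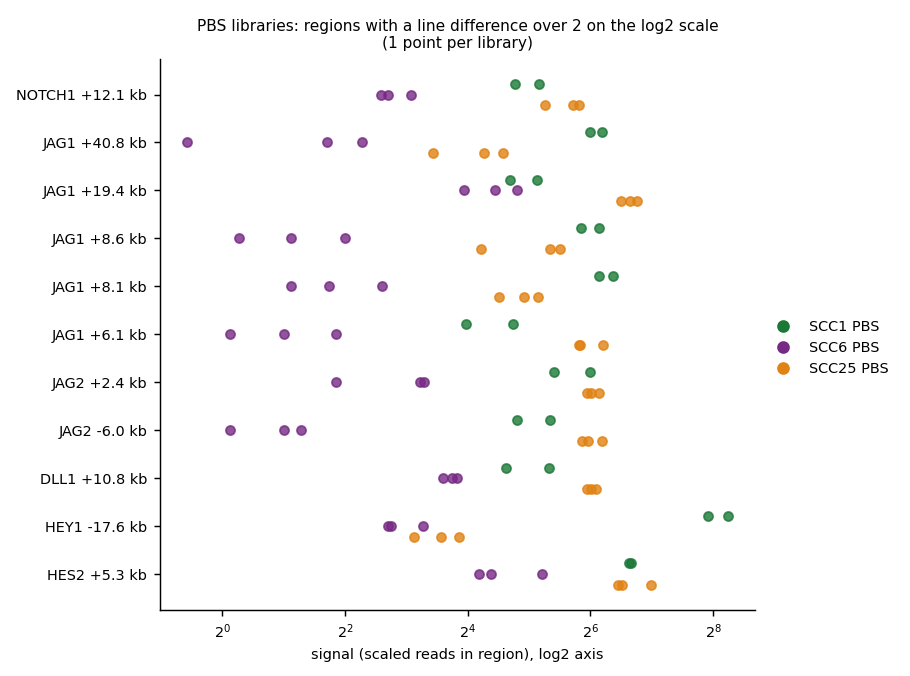
Signal in the PBS libraries (x axis, scaled reads, log2 axis) with 1 point per library and 1 row per region, for the member regions in which lines differed by more than 2 on the log2 scale. The HEY1 region 17.6 kb upstream separates SCC1, at 242 and 303, from the other lines, and most JAG1 and JAG2 rows place SCC6 lowest.

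The JAG ligand genes were mostly less accessible in SCC6. Of the 11 JAG1 regions 8 were lower in SCC6 than in SCC1 and none higher, and of the 5 tested at JAG2 3 were lower and 1 higher. The intron at 8.6 kb had 57.2 and 70.3 in SCC1 PBS, 1.2, 4.0 and 2.2 in SCC6 and 40.7, 45.4 and 18.7 in SCC25 (SCC6 against SCC1, -4.30). The regions at 8.1 and 40.8 kb differed as much (-4.07 and -4.32). The intron at 6.1 kb was instead highest in SCC25, with 56.1, 73.6 and 56.8 against 15.6 and 26.8 in SCC1 and 3.62, 2.01 and 1.09 in SCC6 (SCC25 against SCC6, 4.35). Within SCC6 the regions at 8.1, 40.8 and 6.1 kb did not pass the filter on low signal. That at 8.6 kb passed there only through its treated libraries, so these differences are given as descriptions. The JAG1 promoter had 302 and 348 in SCC1, 155, 139 and 162 in SCC6 and 269, 231 and 281 in SCC25. Its difference between SCC6 and SCC1 was -1.09 (SE 0.12, adjusted p = 1.76e-06), the same as the median of 169 regions within 2 Mb, which was also -1.09. Inside the gene body, the differences at 13.2, 8.6, 8.1 and 6.1 kb were larger than that median. That at 2.4 kb was -0.96, and the smallest of the 11 was -0.49. Copy number of the locus was not measured, and its part was not tested.

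Introns of JAG1 differed in other directions between SCC1 and SCC25. The region at 19.4 kb was higher in SCC25, with 99.9, 90.9 and 109 against 35.1 and 25.7 (1.69, adjusted p = 0.000128). The region at 13.7 kb was lower, with 9.42, 10.1 and 8.48 against 36.4 and 36.8 (-1.87, adjusted p = 0.000364). Neither pair of groups overlapped.

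At JAG2, the region 6.0 kb upstream had 40.3 and 27.9 in SCC1 PBS, 2.42, 2.01 and 1.09 in SCC6 and 62.6, 58.4 and 73.0 in SCC25. SCC6 was lowest and near the floor, and the region did not pass the filter within SCC6. Its differences are therefore given as a description (SCC6 against SCC1, -3.64, and SCC25 against SCC6, 4.56). The intron at 2.4 kb gave 3.05 for SCC25 against SCC6 (adjusted p = 9.43e-07). Regions within 2 Mb of JAG2 had medians of -0.42 and 1.07 in the same comparisons.

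NOTCH3 went the other way and was mostly more accessible in SCC6. Its intron at 5.1 kb had 65.1 and 63.6 in SCC1 PBS, 139, 115 and 141 in SCC6 and 67.5, 62.7 and 73.8 in SCC25. SCC6 lay above all libraries of the other lines (against SCC1, 1.02, adjusted p = 0.000104, and SCC25 against SCC6, -0.94, adjusted p = 5.82e-05). The upstream regions at 15.6 and 9.5 kb were higher in SCC6 than in SCC1 as well (1.15, adjusted p = 0.00312, and 1.61, adjusted p = 0.00499), the latter not without SCC1 PBS replicate 3 (adjusted p = 0.0662). Regions within 2 Mb of NOTCH3 had a median of 1.07 between SCC6 and SCC1.

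NOTCH1 and HES1 set SCC25 apart. The NOTCH1 promoter had 169, 144 and 190 in SCC25 PBS, above 80.7 and 78.2 in SCC1 (1.06, adjusted p = 7.37e-05). The region 12.3 kb upstream was lower in SCC25, with 24.1, 15.1 and 24.6 against 45.5 and 73.7 in SCC1 (-1.43, adjusted p = 0.000759) and against SCC6 (-1.36, adjusted p = 0.000249). HES1 at 3.3 kb had 85.9, 76.4 and 78.9 in SCC25, 23.4 and 22.3 in SCC1 and 16.9, 19.4 and 26.1 in SCC6, with no overlap between SCC25 and the others (against SCC1, 1.77, adjusted p = 6.55e-05). With cetuximab the SCC6 libraries had 43.0 to 45.5 there, still below those of SCC25.

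Further regions placed SCC6 below both other lines. The NOTCH1 intron at 12.1 kb did not pass the filter within SCC6, and its difference is a description. It had 8.46, 6.02 and 6.53 in SCC6 PBS, against 27.3 and 35.7 in SCC1 (-2.02) and 52.8, 38.2 and 56.0 in SCC25. The DLL1 region at 10.8 kb, beyond the end of the gene, had 12.1, 13.4 and 14.1 in SCC6, 24.7 and 40.2 in SCC1 and 68.2, 64.2 and 61.9 in SCC25 (SCC25 against SCC6, 2.21, adjusted p = 2.14e-06). HES2 at 5.3 kb had 18.1, 20.7 and 37.0 in SCC6 against 98.9 and 102 in SCC1 (-2.01, adjusted p = 1.22e-05). In each of these the SCC6 libraries lay below those of the other lines. The HEY1 promoter was instead lowest in SCC25, with 238, 189.7 and 169.7 against 317, 279.7 and 313 in SCC6 (-0.62, adjusted p = 0.000273). Between SCC6 and SCC1 the regions within 2 Mb had medians of 0.07 at NOTCH1, -1.30 at DLL1 and -0.68 at HES2. The DLL1 region at 10.8 kb itself differed by -1.20 in that comparison. Between SCC25 and SCC6 the medians were 0.29, 0.50 and 1.30.

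Other genes of the pathway were read at their promoters. The list held 46 genes, of which 37 had a promoter region, and DLL3, DLL4, HES5, HES7 and HEYL were among those without one. In SCC1, 10 of 35 tested rose and 0 fell by limma, against 12.6% of all promoter regions higher and 2.12% lower. At unadjusted p under 0.05, 1 was lower, edgeR gave 10 and 0 and DESeq2 9 and 0. The 10 that rose by limma included PSENEN, a subunit of gamma-secretase (1.00, adjusted p = 0.0015), and ADAM10, which makes the first cut (0.53, adjusted p = 0.0489). LFNG, a glycosyltransferase that tunes ligand choice (0.87, adjusted p = 2.76e-07), and the target HES4 (1.25, adjusted p = 1.89e-05) were among them too. PSEN2, APH1B, POFUT1, MIB2, NUMBL and MAML1 were the others. Among all promoter regions in SCC1, 2102 were higher, and 1151 with the GC trend removed. Which of the 10 calls were kept in that fit is not given here.

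In SCC6, 1 of 35 rose, DTX2, a ubiquitin ligase (1.12, adjusted p = 0.0323), and 3 fell, counts that are not above the 5.65% and 10.9% of all promoter regions. The 3 were FBXW7, which marks NOTCH for degradation (-0.53, adjusted p = 0.00333), the coactivator MAML3 (-0.63, adjusted p = 0.0242) and PSEN2, a catalytic subunit of gamma-secretase (-0.47, adjusted p = 0.0306). In SCC25, 0 of 34 passed by limma, edgeR or DESeq2, with 1 at unadjusted p under 0.05. The interaction passed for 9 of 34 (PSEN2, PSENEN, ADAM10, POFUT1, LFNG, MIB2, NUMB, NUMBL and HES4), against 13.8% of all promoter regions. Promoter regions in SCC1 leaned to higher signal in general, as the 12.6% above shows.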

How the data were processed

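ATAC-seq libraries of SCC1, SCC6 and SCC25 cells were made with the Nextera Tn5 kit. According to the study's methods and the submitters' processing notes, reads were trimmed with Trim Galore 0.5.0, aligned to hg19 with Bowtie2 2.3.2, cleared of duplicate and mitochondrial reads with Picard 2.18 and filtered with SAMtools 1.9. The authors called peaks library by library with MACS2 and built a common set of regions with DiffBind, whose cutoffs and versions are not given in the sources used here. The deposited region table holds a signal for 115087 regions per library, which the authors scaled per library. The deposited peak lists give a fold enrichment (a ratio) for each peak, and only the positions and the fold were used.

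Every value of the signal was a whole number of reads times 1 factor per library (100% of values within 0.001 of a whole number), with 0 raised to 1 read. The factors ran from 0.331 to 1.95, and reads in regions from 2194851 to 15017130. A count test had been planned for a table of counts. Because the deposited values are a signal, limma 3.58.1 in R 4.3.3 (trend and robust, two-sided) was fitted on log2(signal + 1), which understates the change of low regions. The 25% of regions with the lowest mean were left out of each fit, and p-values were adjusted over all tested regions by Benjamini-Hochberg, at a threshold of 0.05. edgeR 4.0.16 and DESeq2 1.42.0 on the recovered reads were alternatives, beside other scalings, a pseudocount of 5, no filter, the GC trend removed by lowess, a replicate block and each library left out in turn. The fits were checked on simulated reads.

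Regions were annotated with GENCODE release 44 on GRCh37, the sequences were read from that genome, and copies were found with minimap2 2.31-r1302. Python 3.11.15 with pandas 2.3.3, numpy 2.4.6, scipy 1.17.1 and pysam 0.24.0 did the rest, with matplotlib 3.10.9 for the plots. Regions were named by a rule. It took the strongest promoter region of each gene, in each line the 4 higher and 4 lower calls of smallest adjusted p whose groups did not overlap (over all lines, those with 1 direction throughout), the 6 smallest adjusted p of the interaction, and the 3 higher and 3 lower for each pair of lines. The other regions named were chosen after their values were seen. The members, the pathway list and the marker list were chosen with earlier results of these data known. SCC1 PBS replicate 2 was not analysed here.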

Additional observations from a re-analysis of the deposited data

Results flagged for a closer look

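The response to cetuximab differed between lines at 12 member regions by the interaction of line and treatment (limma with Benjamini-Hochberg adjustment over all regions). Those along NOTCH1 had adjusted p-values of 0.000585 at the SEC16A promoter 62.5 kb from the start, 0.00136 at the promoter and 0.036 at 12.3 kb upstream. At the first pair every alternative kept the call, with adjusted p up to 0.0176 and 0.0158.

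NRARP was flagged at all 3 of its regions, with adjusted p-values of 0.0449 at the promoter, 0.0382 at 9.3 kb upstream and 0.0275 at 14.2 kb upstream. HES1 had 0.027 at 3.3 kb and 0.0379 at 1.4 kb upstream. HES2 had 0.0362 at 5.3 kb and 0.0342 at 26.3 kb, the ACOT7 promoter. The intron of JAG1 at 8.6 kb had 0.0202, and the promoter shared by DLL1 and FAM120B had 0.032. The JAG1 value is a description, since within SCC6 that region passed the filter on low signal only through its treated libraries. Of these 9 and the NOTCH1 region at 12.3 kb upstream, each was lost in 6 to 15 of 25 alternatives. With the GC trend removed 8 of the 12 no longer passed. The difference between SCC6 and SCC1 then went from -0.62 to -0.09 at HES1 1.4 kb upstream (adjusted p = 0.669) and from -0.90 to -0.31 at the NRARP promoter (adjusted p = 0.35). NRARP lies within 2 Mb of NOTCH1 on chromosome 9, so the calls at these genes share a stretch of the genome. Among tested regions within 2 Mb of NRARP, 36.7% were higher with cetuximab in SCC1, with a median log2 difference of 0.69. The median there was -0.17 in SCC6, against -0.69 over the 3 NRARP regions. Whether the NRARP calls stand apart from their surroundings was not tested. Beyond the fit with the GC trend removed, no cause was tested.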

How the results depend on the processing

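Of the 37 named results that passed the threshold, 25 passed in every alternative in which they were tested (HEY1 at 16.4 kb in SCC6 in 14 of 15), and 12 did not in at least 1. None with a direction reversed. The interaction results were compared by p-value only, so a reversal could not show in them. The 25 that passed throughout include HEY1 at 16.4 kb, which passed the filter in SCC6 only through its treated libraries. They also include PBS differences of SCC6 from other lines at JAG1 8.1 and 6.1 kb and JAG2 6.0 kb upstream, regions that failed the filter within SCC6. The PBS differences at HEY1 17.6 kb upstream, where SCC1 carried the mean, are among them too. These are given as descriptions, and their passing does not count as support, since their selection favoured a difference. The number of member regions called in SCC1 (6) was 10 with libraries centred on their median and 3 without the filter, and 2 to 10 with 1 library left out. In SCC6 (14) it was 9 to 14 with 1 library left out, and in SCC25 (0) edgeR gave 1. Over all lines (1) it was 4 after centring, 3 with the GC trend removed, 2 after quantile normalization or with DESeq2, 0 with edgeR or without the filter, and 0 to 2 with 1 library left out. For the interaction (12) edgeR gave 19, the GC trend removed 4, and leaving out 1 library 4 to 14. Between SCC25 and SCC1 in PBS (20), leaving out 1 library gave 13 to 22, with 13 without SCC1 PBS replicate 1. Where SCC1 PBS was left with 1 library, it was assumed to vary like the others.

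Centring moved the median of all regions by 0.21 in SCC1, -0.18 in SCC6 and 0.12 in SCC25, and by -0.33, -0.48 and -0.15 between SCC6 and SCC1, SCC25 and SCC1, and SCC25 and SCC6. Quantile normalization moved it by -0.12 in SCC6 and by -0.13 between SCC6 and SCC1, DESeq2 by 0.12 in SCC1 and -0.10 in SCC6, and the GC trend removed by -0.18 between SCC25 and SCC6. Higher and lower calls in SCC6 (6 and 8) became 5 and 14 after centring, 5 and 13 after quantile normalization, and 6 and 4 with the GC trend removed. Between SCC25 and SCC1 (10 and 10) centring gave 4 and 17, and between SCC25 and SCC6 (20 and 7) it gave 17 and 11.

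The replicate numbers do not pair the libraries, since the deviations of same-numbered libraries from their group means had correlations of -0.0420 to 0.0265. A fit with the replicate number as a block called 10 member regions in SCC1 (9 higher, 1 lower), 15 in SCC6, 0 in SCC25, 0 over all lines, 13 in the interaction, and 23, 19 and 27 between SCC6 and SCC1, SCC25 and SCC1, and SCC25 and SCC6. Since SCC1 PBS lacked replicate 2, the block left SCC1 cetuximab replicate 2 without weight in the SCC1 fit. Leaving that library out gave the same 10, 9 and 1. The 7 NOTCH2 regions have no usable value.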

Other observations

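Markers of cells other than squamous epithelium were read at their promoters in the PBS libraries. The mesenchymal gene COL1A2 had mean signals of 39.2 in SCC1, 10.4 in SCC6 and 28.9 in SCC25, and PDGFRA 62.0, 15.2 and 45.4. DCN was at or near the floor, with 1.21, 1.35 and 0.649, and PTPRC, CD3E, SPI1, CDH5 and MLANA had no promoter region. The promoter region of the melanocyte gene PMEL, whose start lies next to that of CDK2, had 431, 531 and 451, and that of the epithelial adhesion gene CDH1 had 77.7, 79.8 and 58.8. The part of these differences in the values of the NOTCH loci was not tested.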
